A study of Mus musculus with 12 samples.

Results

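Striatal RNA of mice that carry a Huntington's disease knock-in allele was compared with and without the DNA sensor cGAS. The comparison rests on 6 of the series' 12 libraries, chosen by their titles, 3 named HD and 3 named cGAS-KO; HD. HD mice were heterozygous for zQ175 neo-deleted, an allele that places an expanded CAG repeat in the mouse Htt gene. The cGAS-KO; HD mice, called double mutants here, combined that knock-in (Q175DN) with a knockout of cGAS, so both groups share the knock-in allele. A further 2 groups of 3 mice, C57BL/6J controls (WT) and cGAS knockouts without the knock-in (cGAS-KO), give reference levels. The replicates are separate mice, per the labels' protocols, while the zygosity of the knockout, the part of Cgas it removes, and the age, sex and litter of the mice are details that the sources used here do not give.

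cGAS binds double-stranded DNA in the cytosol and makes the messenger cGAMP. cGAMP activates STING (gene Tmem173), which recruits the kinase Tbk1, and Tbk1 activates the transcription factor Irf3 and so interferon and interferon-stimulated genes. In the brain the pathway is best known from microglia. In Huntington's disease the medium spiny neurons, inhibitory projection cells and the main neurons of the striatum, lose the expression of their identity genes before many of them die, and crossing the knock-in to a cGAS knockout asks how striatal RNA differs when the sensor is lost.

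The 6 libraries held 65077315 to 72765623 counts, and the 12 held 59195327 to 72765623, with 26827 to 28348 genes detected. Striatal identity genes were present in all 6 libraries, for example Ppp1r1b, the dopamine signalling protein DARPP-32, at 227 to 472 CPM (each library's counts scaled to a common total by edgeR's TMM). Xist, made from the inactive X, was abundant in HD replicates 1 and 2 and in double-mutant replicates 2 and 3 and near 0 in the remaining 2 of the 6 libraries, so both groups held 2 such libraries. Mitochondrially encoded genes took 5.302% to 6.817% of counts in HD and 6.302% to 9.026% in the double mutants. Outside the 6, WT replicate 1 and cGAS-KO replicate 3 stood apart from their groups in markers of cortical projection neurons, with a mean log2(CPM + 1) of 4.19 against 5.47 and 5.66 in WT and of 6.10 against 4.96 and 4.46 in cGAS-KO. Values against WT are therefore given with and without them. Each was also the library of its group with abundant Xist, at 82959 and 93627 counts, against 35 to 178 in the other WT and cGAS-KO libraries. Without the 2, these reference groups hold libraries poor in Xist alone, unlike the knock-in groups. The part of this in the values was not tested.

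The targeted genes were read first. Cgas was a rare transcript. It measured 1.13, 1.07 and 1.26 CPM in HD replicates 1 to 3 and 1.15, 1.15 and 0.798 CPM in the double mutants, against 1.32 to 1.56 CPM in WT and 0.572 to 0.882 CPM in cGAS-KO. The HD and double-mutant values overlapped, with only double-mutant replicate 3 below every HD library, and the log2 change was -0.17 ± 0.24 (SE, 95% interval -0.70 to 0.37). In mice without the knock-in the values were apart, with a log2 change of -0.86 for cGAS-KO against WT (interval -1.37 to -0.35). Double-mutant replicates 1 and 2, by contrast, lay inside the HD range and above every cGAS-KO library. A knockout allele can leave part of a gene in place to be transcribed, so whole-gene counts give a weak check of the labels. Here they do not separate double mutants from HD, and so do not bear out the label. Double mutant and loss of cGAS therefore name the libraries by their label. Htt, which carries the knock-in repeat in both groups, was at 144, 131 and 143 CPM in HD and 126, 138 and 142 CPM in the double mutants. Its log2 change of -0.05 ± 0.07 had an interval of 0.872-fold to 1.07-fold.

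Loss of cGAS in knock-in striatum went with 1 called gene among 20426 tested. That gene, Mid1-ps1, fell, and no gene rose. The test was edgeR's quasi-likelihood F test, with p adjusted over all genes tested by the Benjamini-Hochberg method and a threshold of 0.05, and the share of genes called was 0.00490%. The next smallest adjusted p was 0.302. At an unadjusted p under 0.05, 1365 genes were higher in the double mutants (6.68%) and 1398 lower (6.84%). limma-voom also called Mid1-ps1 and no other gene. DESeq2's Wald test called 88 genes higher (0.431%) and 114 lower (0.558%), and gave no adjusted p for 5149 genes. The count of calls by edgeR also depended on 1 library, since it was 298 without HD replicate 1 and 1 to 3 without any other single library.

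Mid1-ps1 is annotated in GENCODE M21 (GRCm38) as an unprocessed pseudogene on the Y chromosome, at 90753057 to 90763485 on the plus strand, and is a copy of the X-linked ubiquitin ligase gene Mid1. It had 497, 376 and 517 counts in the HD libraries and 58, 55 and 76 in the double mutants. In WT it had 33, 23 and 26 counts and in cGAS-KO 36, 21 and 33. All 3 HD libraries were thus far above the other 9, and no value overlapped. It fell by 2.86 ± 0.19 on the log2 scale (SE, edgeR adjusted p = 0.000165), with an interval of 0.104-fold to 0.184-fold. HD replicates 1 and 2 had 2 and 1 counts of the Y-linked gene Ddx3y, so the pseudogene was equally high in libraries nearly without Ddx3y reads and in HD replicate 3, which had 8033. Reads of near-identical copies can be placed on either copy, and the minus-strand gene Gm21860 lies inside the span of Mid1-ps1, so its count is uncertain in ways that depend on the authors' alignment and counting. Gm21860 went the other way, with 72, 70 and 77 counts in HD and 207, 136 and 106 in the double mutants. A further Y pseudogene downstream, Gm21742, had 72, 47 and 38 counts in HD and 7, 2 and 0 in the double mutants (log2 change -4.06, interval -5.73 to -2.38, edgeR adjusted p = 0.302). Gm47283, which lies between Mid1-ps1 and Gm21742, had 1234, 959 and 856 counts in HD and 1711, 808 and 485 in the double mutants. Its log2 change was 0 (interval -1.38 to 1.37). Mid1 itself changed by -0.46 (interval -1.57 to 0.64).

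Because few genes passed, the sizes of change that the data exclude carry most of the information. The median gene differed between the groups by 0.142 on the log2 scale in either direction. An estimate beyond 2-fold was found for 462 genes, of which 386 were under 1 CPM. The 95% interval of the change lay inside 2-fold for 15701 genes (76.9%), inside 1.5-fold for 12243 (59.9%), inside 1.2-fold for 4774 (23.4%) and inside 4-fold for 19577 (95.8%). An equivalence test of each gene, adjusted by Benjamini-Hochberg over all genes, placed 16262 genes (79.6%) within 2-fold and 12477 (61.1%) within 1.5-fold.

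Precision followed the level of the gene. Among 5197 genes under 1 CPM the median interval reached 1.98-fold to either side of its estimate, and 20.8% of them excluded a 2-fold change. From 1 to 10 CPM the reach was 1.33-fold and 89.9% excluded 2-fold. Among the 8144 genes from 10 to 100 CPM the reach was 1.14-fold, 98.7% excluded 2-fold and 93.7% excluded 1.5-fold. Above 100 CPM these shares were 99% and 95%. Changes of 2-fold or more in well expressed genes were therefore outside the intervals of nearly all of them, whereas for rare transcripts such changes were often inside them.

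**Figure D1:**
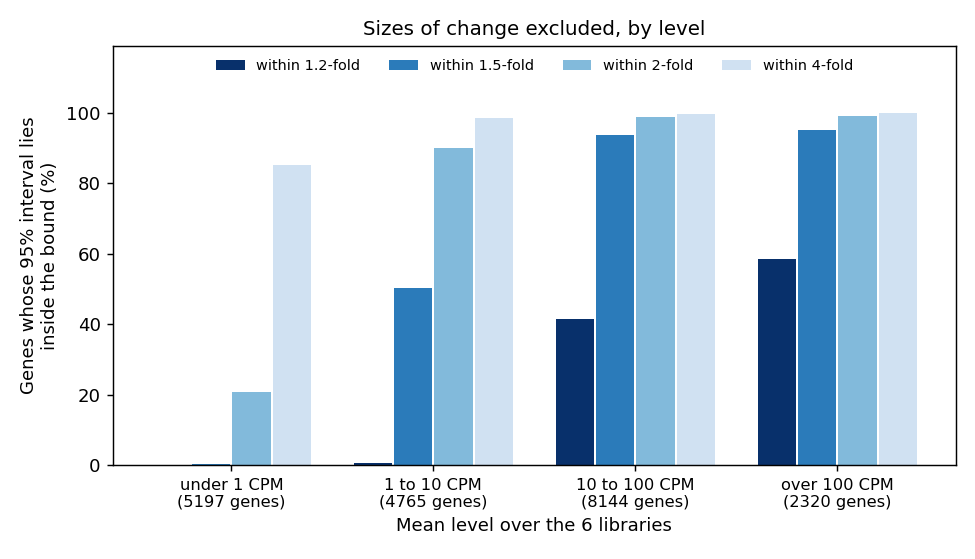
Bars give the percentage of genes whose 95% interval of the change between double mutants and HD lies inside 1.2-fold, 1.5-fold, 2-fold or 4-fold, for genes grouped by their mean level over the 6 libraries. Under 1 CPM 20.8% of genes lie inside 2-fold, and above 10 CPM nearly all do.

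The genes with the smallest p among those of at least 1 CPM whose 6 values did not overlap are given as values, since only Mid1-ps1 among them passed edgeR's test. Such separation occurred in 1829 of all tested genes in the higher direction (8.95%) and 1716 in the lower direction (8.40%). On the higher side, Dtl, a substrate receptor of a ubiquitin ligase that acts in DNA replication, was at 0.77, 0.585 and 0.555 CPM in HD and 1.71, 2.56 and 1.84 CPM in the double mutants (log2 1.67 ± 0.25, interval 1.12 to 2.22). Cckbr, the brain receptor of cholecystokinin, was at 6.76, 6.52 and 5.55 CPM and 10.6, 13 and 10.3 CPM (log2 0.84, interval 0.55 to 1.13). Both genes were also variable without the knock-in. WT replicates 1 to 3 had 8.36, 24 and 27.3 CPM of Cckbr, and the cGAS-KO libraries 13.5, 10.5 and 49.5 CPM. Dkkl1 (log2 2.01, interval 1.21 to 2.81) and the microglial adhesion ligand Selplg (log2 0.44, interval 0.26 to 0.61) followed. Dkkl1 too was variable without the knock-in, at 0.193, 6.51 and 6.55 CPM in WT and 1.72, 0.636 and 11.8 CPM in cGAS-KO. The smaller differences were those of Fam81a (0.40, within 10 Mb of Cgas), Gprin1 (0.36), the ankyrin repeat protein Ankrd12 (0.34) and Ssbp3 (0.29). Fam81a ranged from 83.3 to 144 CPM in WT and from 85.3 to 217 CPM in cGAS-KO.

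On the lower side, Gabrd, the delta subunit of extrasynaptic GABA-A receptors, was at 34.2, 36.9 and 38.5 CPM in HD and 23.5, 26.8 and 28.2 CPM in the double mutants (log2 -0.49 ± 0.09, interval -0.68 to -0.30). Gabrd was at 51.2 to 67.4 CPM in WT, so the double mutants lay further from WT than HD did. Unc13c, a presynaptic priming factor whose gene lies within 5 Mb of Cgas, measured -0.47, and the tetraspanin Tspan9 -0.62. Robo4, a guidance receptor of endothelial cells, was at 1.36, 2.27 and 2.00 CPM in HD and 0.729, 0.796 and 0.741 CPM in the double mutants (log2 -1.31, interval -1.86 to -0.77). The gap junction gene Gjc1 (-1.22), the secreted protease Adamts15 (-1.0) and the protease inhibitor A2m (-0.89) were the rest. Variation without the knock-in was wide here as well. A2m was at 36, 6.13 and 4.68 CPM in WT, and Gjc1 at 1.79, 5.17 and 1.48 CPM in cGAS-KO. DESeq2 called all 8 of the higher genes and all 8 of the lower genes, with adjusted p of at most 0.0112.

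**Figure D2:**
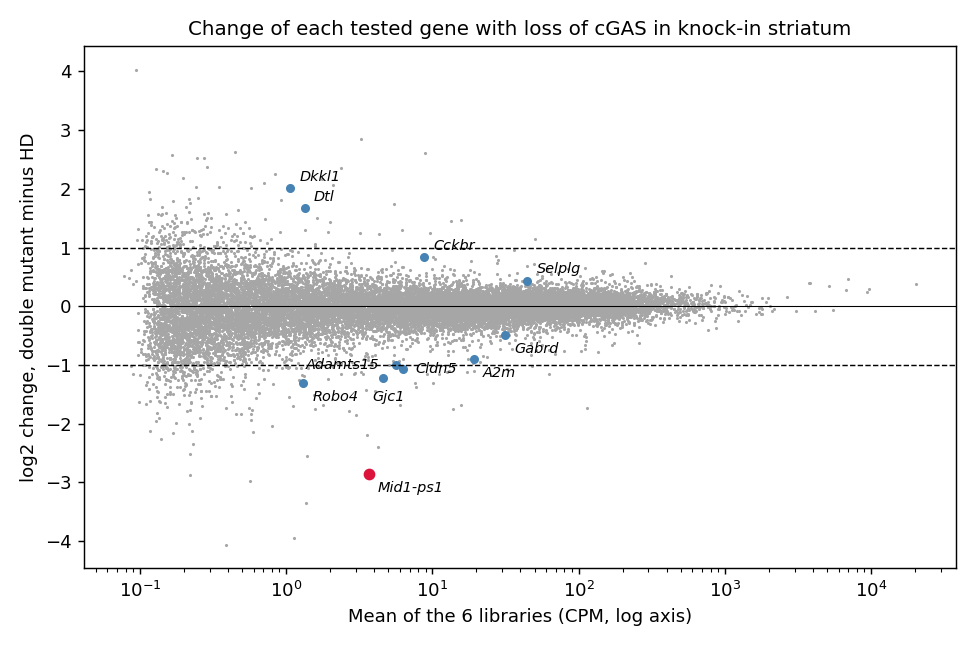
Each grey point is 1 of the 20426 tested genes, placed by its mean level over the 6 libraries in CPM on a log axis and its log2 change between double mutants and HD, with dashed lines at 2-fold. The red point is Mid1-ps1, the 1 gene that edgeR called, at -2.86, and the blue points are genes described by their values.

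Identity genes of medium spiny neurons stood low in both knock-in groups. None of 54 tested members passed edgeR's test between double mutants and HD (1 higher and 2 lower at an unadjusted p under 0.05, 1 lower by DESeq2), the median log2 change was 0.13 and 48 of the 54 intervals lay inside 2-fold. Against WT the medians were -0.95 in HD and -0.78 in the double mutants, 2 comparisons that share the WT libraries, and -1.11 and -0.92 without the 2 libraries that stood apart. The interval of double mutants against WT lay below 0 for 41 of the 54 members, against 9.25% of all genes, and above 0 for 1, against 9.27%. Without those 2 libraries it lay below 0 for the same number, 41, against 14.2% of all genes. In bulk tissue fewer cells of a type and less RNA per cell cannot be told apart.

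The dopamine receptor gene Drd1, of direct pathway neurons, was at 70, 52.7 and 31.9 CPM in HD and 56.8, 59.8 and 58 CPM in the double mutants, with WT at 105 to 154. The double-mutant values lay close together inside the HD range, and the change was 0.17 (interval 0.685-fold to 1.85-fold). Drd2, of indirect pathway neurons, was at 71.8, 50.2 and 31.2 CPM in HD and 76.4, 64.8 and 64.9 CPM in the double mutants, with WT at 112 to 149, and its interval reached 2.35-fold. Adora2a, which encodes an adenosine receptor of indirect pathway neurons, had 38.4, 29.4 and 21.5 CPM in HD and 34.4, 31.9 and 31.1 in the double mutants, far from the 89.5 to 137 CPM of WT. Its interval of 0.804-fold to 1.47-fold excluded a 2-fold increase.

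Changes of the neuropeptide and signalling genes were small against their intervals. Penk measured 0.33 (interval -0.40 to 1.05), Tac1 0.39 (-0.23 to 1.00), Pdyn 0.15 (-0.37 to 0.67), Ppp1r1b 0.11 (-0.58 to 0.80) and the phosphodiesterase Pde10a 0.08 (-0.40 to 0.57). Ryr1, a calcium release channel, measured 0.14 (-0.16 to 0.45), the G protein regulator Rgs9 0.05 (-0.44 to 0.55) and the orphan receptor Gpr6 0.02 (-0.56 to 0.60). Scn4b, a sodium channel subunit, was the member with values lower in the double mutants, at 68.7, 87.7 and 113 CPM against 132, 136 and 114 in HD and 480 to 684 in WT. Its log2 change was -0.51 ± 0.18 (interval -0.94 to -0.08). Double-mutant replicate 3 reached almost to the lowest HD value, and only DESeq2 called the gene (adjusted p = 0.037, against 0.335 by edgeR). The endocannabinoid receptor gene Cnr1 had the smallest p of the list, at 0.23 (interval 0.05 to 0.41, edgeR adjusted p = 0.32).

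The width of these intervals came from the HD group. In 48 of the 54 members HD replicate 1 was the highest and HD replicate 3 the lowest of the HD libraries, an order found in 23.3% of all tested genes. The members' median SD on the log2(CPM + 1) scale was 0.353 in HD and 0.104 in the double mutants, while over all genes it was 0.097 and 0.103. Their summed level was 8476, 6889 and 5378 CPM in HD replicates 1 to 3 and 7451, 7810 and 7629 CPM in the double mutants. The result therefore turned on single HD libraries. Without HD replicate 1 the median change was 0.32 with 29 members higher at an unadjusted p under 0.05 (9.84% of all genes in that fit), and without HD replicate 3 it was -0.02 with none higher (3.53% of all genes in that fit). Direct pathway genes (10 tested, median 0.13) and indirect pathway genes (11 tested, median 0.12) gave no edgeR call, 0 and 1 members at an unadjusted p under 0.05 and 0 and 1 DESeq2 calls. Without HD replicate 1 their medians were 0.38 and 0.27, with 5 members of each higher at an unadjusted p under 0.05, and with each library left out the medians ran from 0.04 to 0.38 and from 0.06 to 0.27. The 1 member at that level over all 6 libraries was Adk, adenosine kinase, at -0.37 (interval -0.56 to -0.18). Adk did not move with its list, being higher in HD than in WT (log2 0.30, interval 0.06 to 0.54), where indirect pathway genes had a median of -0.85. Its change is therefore not read as one of indirect pathway neurons.

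**Figure D3:**
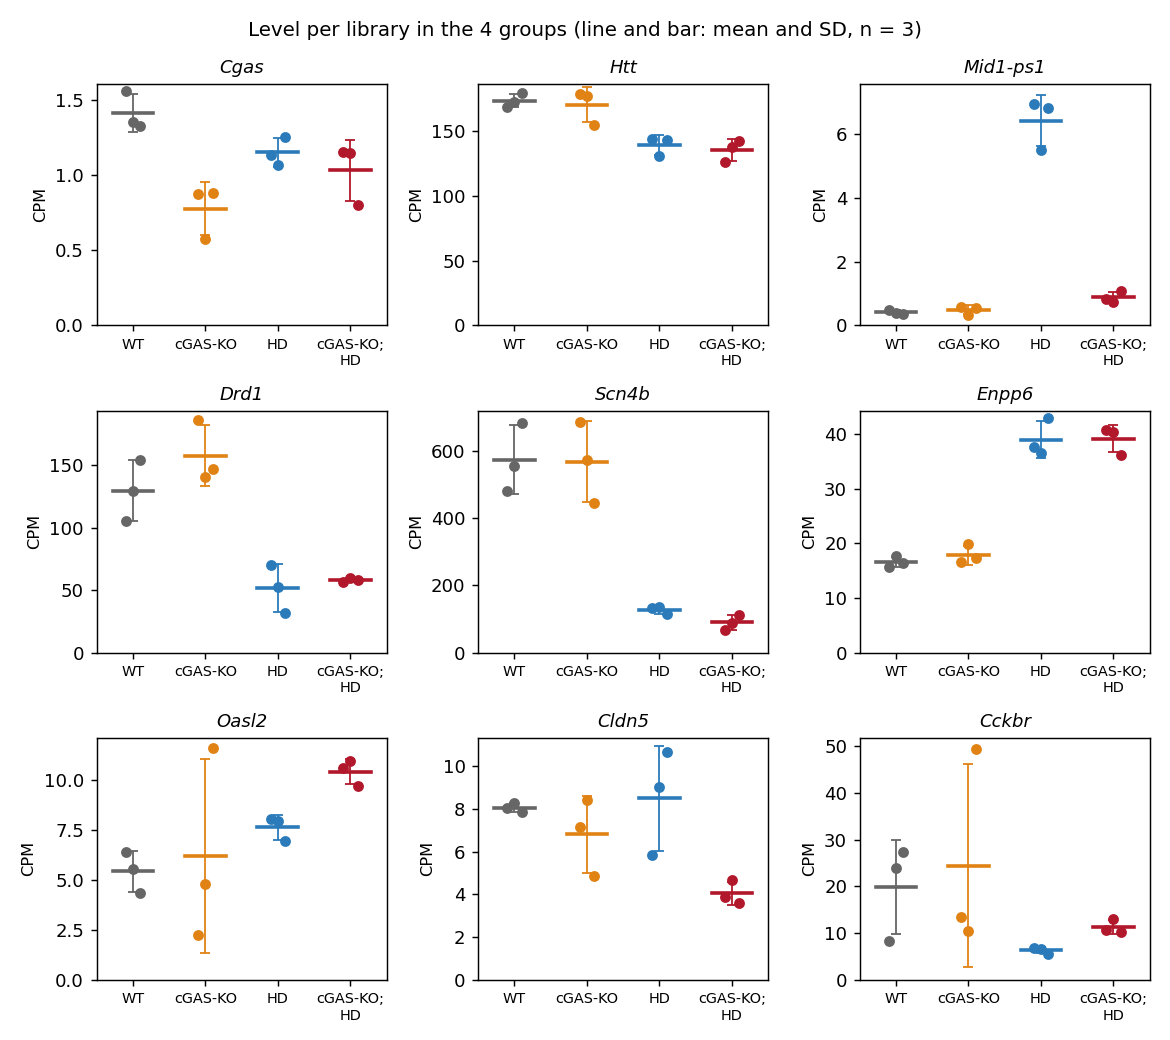
Points give the level in CPM of 9 genes in each of the 12 libraries by group, replicates 1 to 3 from left to right, with lines at the mean and bars of 1 SD (n = 3). Drd1 and Scn4b are low and Enpp6 is high in both knock-in groups, Mid1-ps1 is high in HD alone, and the WT and cGAS-KO libraries are widely spread for Cckbr.

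Components of the cGAS-STING pathway were measured with narrow intervals around 0. Of 40 listed genes 38 were tested, none passed edgeR's test, 1 was higher and 1 lower at an unadjusted p under 0.05, DESeq2 called none, the median change was 0.00 and 35 intervals lay inside 2-fold. Tmem173, which encodes STING, was at 4.38, 4.90 and 3.35 CPM in HD and 5.00, 4.82 and 4.82 CPM in the double mutants (interval 0.905-fold to 1.47-fold). The kinase gene Tbk1 was at 53.3, 51.8 and 52.6 CPM in HD and 50.2, 51.9 and 50.2 CPM in the double mutants, with an interval of 0.878-fold to 1.05-fold. Irf3 had an interval of 0.828-fold to 1.13-fold. The nucleic acid sensor Zbp1, a rare transcript, had the smallest p, at 0.14, 0.365 and 0.251 CPM in HD and 0.626, 0.54 and 0.399 CPM in the double mutants. Its values were apart, but the interval ran from 1.08-fold to 3.9-fold and the edgeR adjusted p was 0.337.

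Interferon-stimulated genes carry in many promoters an interferon-stimulated response element, the DNA site through which interferon signalling activates them. The sequences below are the 250 bases before the RefSeq start (GRCm38.p6), written 5′ to 3′ on the gene's strand, with matches to the element in capitals. A match is a pair of GAAA separated by any 2 bases, searched on both strands, so that on the other strand it reads as a pair of TTTC. They are shown because Ifit1, Ifit3 and Isg15 are standard readouts of the pathway and Oasl2 is the member with the smallest p. Ifit1 lies at chr19:34640639-34640888 (plus strand), Ifit3 at chr19:34583279-34583528 (plus), Isg15 at chr4:156200819-156201068 (minus) and Oasl2 at chr5:114896684-114896933 (plus).
Ifit1: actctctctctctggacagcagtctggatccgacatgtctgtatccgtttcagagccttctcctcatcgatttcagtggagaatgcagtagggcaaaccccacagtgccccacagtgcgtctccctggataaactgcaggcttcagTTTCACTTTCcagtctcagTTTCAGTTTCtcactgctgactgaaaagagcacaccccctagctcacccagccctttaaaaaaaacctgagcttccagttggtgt
Ifit3: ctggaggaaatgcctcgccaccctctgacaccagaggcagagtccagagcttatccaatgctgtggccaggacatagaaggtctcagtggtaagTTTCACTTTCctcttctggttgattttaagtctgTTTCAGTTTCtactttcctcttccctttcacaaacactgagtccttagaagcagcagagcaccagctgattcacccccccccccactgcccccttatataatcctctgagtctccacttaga
Isg15: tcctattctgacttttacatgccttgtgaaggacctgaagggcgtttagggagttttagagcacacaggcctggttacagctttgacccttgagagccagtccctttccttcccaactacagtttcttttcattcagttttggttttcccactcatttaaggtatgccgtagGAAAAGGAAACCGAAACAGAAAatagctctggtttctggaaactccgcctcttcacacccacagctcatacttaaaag
Oasl2: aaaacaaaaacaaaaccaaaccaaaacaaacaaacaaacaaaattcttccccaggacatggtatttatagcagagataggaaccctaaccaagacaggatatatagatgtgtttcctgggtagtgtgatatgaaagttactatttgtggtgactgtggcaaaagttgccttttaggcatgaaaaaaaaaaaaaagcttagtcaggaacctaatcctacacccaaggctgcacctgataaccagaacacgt

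Ifit1 and Ifit3 each held 2 matches and Isg15 held 3 that overlap each other, while these letters were not found in the Oasl2 window. The element was present in 1131 of 32851 promoters (3.44%, over 250 bases before to 50 after each start), and in 23 of the 42 listed interferon-stimulated genes with a promoter entry. The 495 tested genes with the element had a median change of 0.02. At an unadjusted p under 0.05, 6.87% of them were higher and 6.06% lower, against 7.39% and 7.23% of the 13302 tested genes with a promoter entry. A match is a description of letters and was not tested for binding.

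Of 56 tested interferon-stimulated genes none passed edgeR's test, 4 were higher and 1 lower at an unadjusted p under 0.05, and DESeq2 called 1. The median change was 0.03, 50 intervals lay inside 2-fold and 31 inside 1.5-fold. Against WT the list's medians were 0.36 in HD and 0.41 in the double mutants, which share the WT libraries, and 0.43 and 0.47 without the 2 libraries that stood apart. The interval against WT lay above 0 for 17 members in HD (8.6% of all genes) and for 19 in the double mutants (9.27%). Without those 2 libraries it lay above 0 for 30 members in HD (15.3% of all genes) and for 30 in the double mutants (14.3%). The mean level over the list, as log2(CPM + 1), was 2.48, 2.66 and 2.50 in HD and 2.53, 2.68 and 2.55 in the double mutants, so the groups overlapped.

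Oasl2, an oligoadenylate synthetase-like gene, was the 1 DESeq2 call, at 8.04, 7.95 and 6.92 CPM in HD and 10.6, 10.9 and 9.69 CPM in the double mutants. It was higher without cGAS in the knock-in, with values apart, at a log2 change of 0.44 ± 0.11 (interval 1.14-fold to 1.61-fold, adjusted p 0.302 by edgeR and 0.0283 by DESeq2). In cGAS-KO its values were 2.23, 4.79 and 11.6 CPM, against 4.33 to 6.39 in WT. Slfn5, of the Schlafen family, was the lower member, at -0.58 (interval -0.96 to -0.20). Ifit1, whose product binds RNA that lacks the host cap methylation, was at 5.76, 9.15 and 6.43 CPM in HD and 8.67, 10.8 and 8.16 CPM in the double mutants, with an interval of 0.983-fold to 1.7-fold. Ifit3 had 17.4, 21.8 and 19.2 CPM in HD and 17.2, 21.4 and 25.2 CPM in the double mutants, an interval of 0.881-fold to 1.34-fold. Reads of Ifit3 can be shared with its near-identical neighbour Ifit3b.

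Rarer members bounded the change less. The ubiquitin-like modifier gene Isg15 was at 1.29, 1.23 and 1.35 CPM in HD and 0.656, 1.16 and 1.71 CPM in the double mutants, with an interval of 0.568-fold to 1.46-fold. Irf7, the interferon regulatory factor that amplifies the response, had 1.99, 2.97 and 4.05 CPM in HD and 2.62, 4.10 and 2.31 CPM in the double mutants (0.642-fold to 1.55-fold). Its WT values were 1.38 to 1.86 CPM. Bst2, which tethers virions at the cell surface, had an interval of 0.561-fold to 1.33-fold. Each of these 3 intervals excluded a 2-fold change in either direction, and none excluded a decrease of 1.5-fold.

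**Figure D4:**
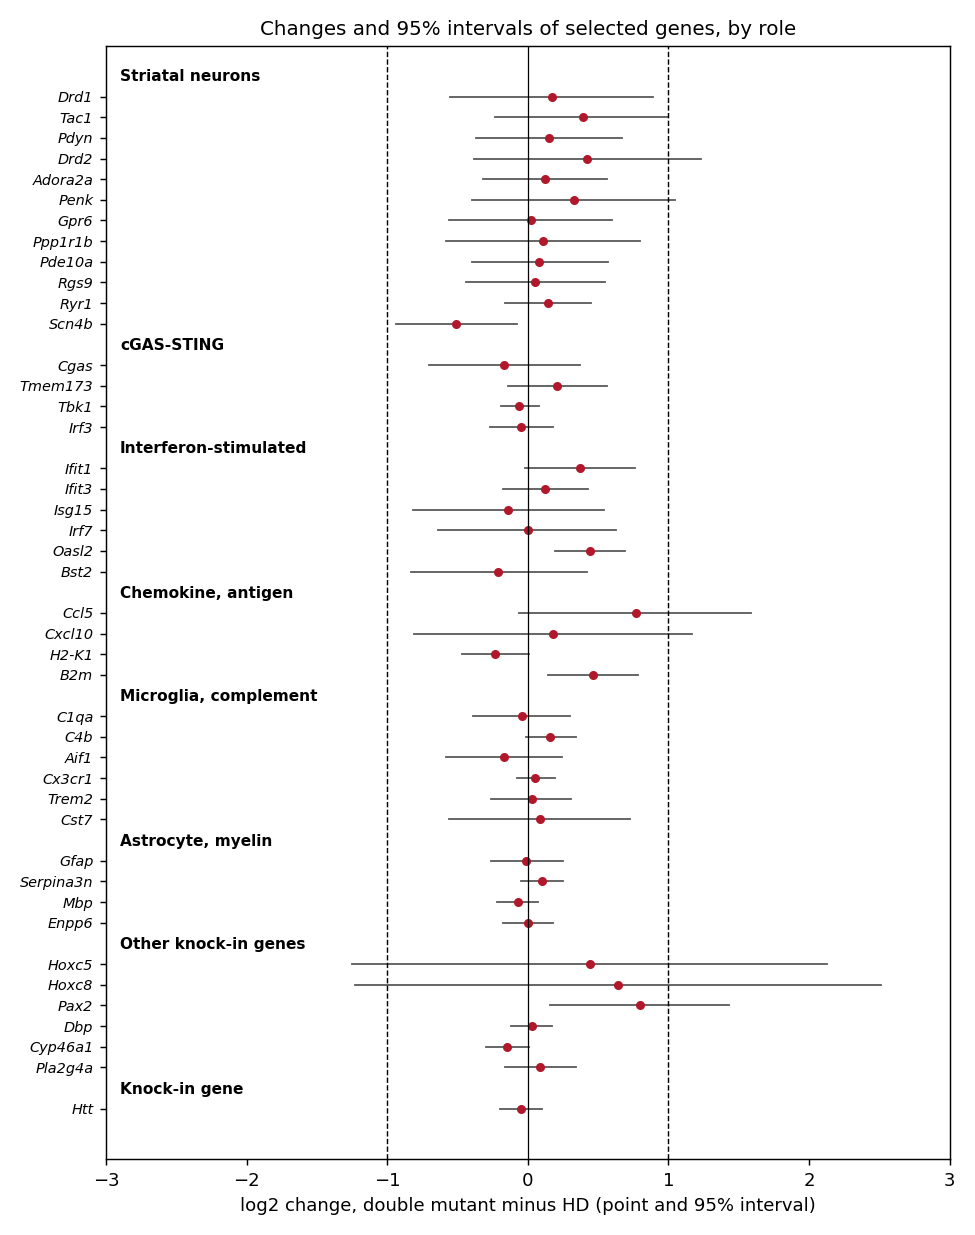
Points and lines give the log2 change between double mutants and HD and its 95% interval for genes chosen by name, grouped by role, with dashed lines at 2-fold. Most intervals include 0 and lie inside 2-fold, while those of Drd2, Penk, Tac1, Ccl5, Cxcl10, Hoxc5, Hoxc8 and Pax2 extend past it.

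Downstream inflammatory genes were similar in size. Of 22 tested cytokines and chemokines none passed edgeR's test, 2 were higher at an unadjusted p under 0.05 and none lower, DESeq2 called none, and the median was 0.13. Ccl5, a chemokine for T cells, was at 0.238, 0.205 and 0.278 CPM in HD and 0.35, 0.459 and 0.427 CPM in the double mutants (interval 0.961-fold to 3.01-fold). Cxcl10, a classic interferon-induced chemokine, had an interval of 0.57-fold to 2.25-fold, so neither interval excluded a 2-fold increase. Ptgs2, the inducible cyclooxygenase, measured 0.85 (interval 0.29 to 1.41).

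Antigen presentation genes (23 tested) had a median of -0.08, with 2 higher and 4 lower at an unadjusted p under 0.05 and 1 DESeq2 call. That call was B2m, the shared light chain of class I molecules, at 109, 117 and 91.3 CPM in HD and 170, 150 and 118 CPM in the double mutants (log2 0.46, interval 1.1-fold to 1.72-fold, adjusted p 0.308 by edgeR and 0.0307 by DESeq2). The double-mutant libraries all lay above HD, replicate 3 by 1 CPM. H2-K1, a class I heavy chain, went the other way, at -0.23 (interval -0.47 to 0.01), as did H2-M3 at -0.71 (interval -1.20 to -0.22), and reads of H2 genes can be shared among near-identical copies. Complement genes (17 tested) had a median of 0.10 and 2 members higher at an unadjusted p under 0.05, with the serine protease C1ra having the smallest p (0.64, interval 0.06 to 1.22), and DESeq2 called none. C4b measured 0.16 (interval 0.993-fold to 1.26-fold) and C1qa -0.04 (interval 0.761-fold to 1.23-fold).

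Microglial identity genes were higher by a small amount in 20 of 25 members. None passed edgeR's test, 8 were higher and none lower at an unadjusted p under 0.05 (5 to 9 and 0 with each library left out in turn), DESeq2 called 1, and the median was 0.16. Of all genes 6.68% were higher at that level, and 3.53% to 9.84% with each library left out. Selplg was the DESeq2 call, at 39.5, 39.1 and 35.1 CPM in HD and 54.4, 53.6 and 46.5 CPM in the double mutants. All 25 intervals lay inside 2-fold. Laptm5, a lysosomal membrane protein of blood cells, was at 42.1, 42.8 and 36.8 CPM against 57.5, 53.1 and 45.1 CPM, and Ly86, a partner of a Toll-like receptor homologue, measured 0.38. Common markers had smaller estimates. Cx3cr1 was at 0.05 (interval 0.943-fold to 1.14-fold), Trem2 at 0.03 and Aif1, which encodes Iba1, at -0.17 (interval 0.671-fold to 1.18-fold). Genes of disease-associated microglia (22 tested, median 0.02) had 1 higher and 2 lower at an unadjusted p under 0.05 and 1 DESeq2 call, the B2m named above. Spp1, osteopontin, was at -0.46 (interval -0.78 to -0.15), and Cst7 at 0.09 (interval -0.56 to 0.73).

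Astrocyte and oligodendrocyte genes bounded the change tightly. Astrocyte genes (22 tested, median -0.01) had 2 higher and 1 lower at an unadjusted p under 0.05 and no call by DESeq2, and all intervals lay inside 2-fold. Fgfr3 had the smallest p, at -0.35 (interval -0.56 to -0.13). Reactive astrocyte genes (26 tested) had a median of -0.01, 1 member higher, 1 lower (Emp1, at -0.56) and no DESeq2 call. The filament protein gene Gfap was at -0.01 (interval 0.833-fold to 1.19-fold), and Serpina3n, a serpin of reactive astrocytes, at 0.10 (interval 0.967-fold to 1.19-fold).

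Myelin and oligodendrocyte genes (30 tested) were lower in 23 members. The median was -0.07, with 1 higher and 8 lower at an unadjusted p under 0.05 (4 to 9 lower with each library left out) and 1 lower by DESeq2. Of all genes 6.84% were lower at that level, and 3.33% to 9.48% with each library left out. Mog, a glycoprotein of the outer myelin sheath, was at 98.7, 112 and 115 CPM in HD and 84.7, 88 and 93.5 CPM in the double mutants, an interval of 0.728-fold to 0.911-fold. Mbp, a major structural protein of myelin, had an interval of 0.859-fold to 1.05-fold. Enpp6, a marker of newly forming oligodendrocytes, was at 37.6, 36.4 and 42.9 CPM in HD and 40.8, 40.4 and 36.2 CPM in the double mutants, against 15.7 to 17.6 CPM in WT. Its change with cGAS loss was 0.00 (interval 0.882-fold to 1.13-fold), so the higher level of the knock-in mice was the same in both groups to within that interval. Oligodendrocyte precursor genes (15 tested, median 0.04) had 4 higher at an unadjusted p under 0.05, none lower and no DESeq2 call, and C1ql1 had the smallest p (0.32, interval 0.08 to 0.56).

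Markers of vessels, cortex, thalamus and choroid plexus were read next, and edgeR called no member of these 4 lists. Endothelial and mural genes (24 tested) had a median of -0.33, none higher and 10 lower at an unadjusted p under 0.05 (6 to 11 lower with each library left out in turn), and 3 lower by DESeq2. Of all genes 6.84% were lower at that level, and 3.33% to 9.48% with each library left out. The list's median was -0.42 to -0.19 with each library left out, nearest to 0 without HD replicate 3. Cldn5, the tight junction protein of the blood-brain barrier, was at 5.83, 9.02 and 10.7 CPM in HD and 3.89, 4.66 and 3.60 CPM in the double mutants. WT was at 7.84 to 8.29 CPM. Its log2 change was -1.08 ± 0.21 (interval 0.345-fold to 0.653-fold, adjusted p 0.302 by edgeR and 0.000189 by DESeq2). The vascular growth factor receptor gene Flt1 was at 20.7, 24.2 and 22.6 CPM in HD and 17.7, 15.5 and 11.8 CPM in the double mutants, and the drug efflux pump gene Abcb1a measured -0.47. The summed level of the list was 319 to 369 CPM in HD and 251 to 321 CPM in the double mutants, and the ranges overlapped through double-mutant replicate 1.

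Cortical projection neuron genes lay the other way. Of 24 tested members 12 were higher and 2 lower at an unadjusted p under 0.05, 7 were higher by DESeq2, none passed edgeR's test, and the median was 0.54 (0.37 to 0.60 with each library left out). Of all genes 6.68% were higher and 6.84% lower at that level. The list's summed level was 1346 to 1589 CPM in HD and 1724 to 1986 CPM in the double mutants. Tbr1, a transcription factor of excitatory cortical neurons, was at 9.36, 9.92 and 5.9 CPM in HD and 20.4, 30.8 and 18.6 CPM in the double mutants (log2 1.47 ± 0.26, interval 0.86 to 2.07, DESeq2 adjusted p = 0.00176). Neurod6 (2.61, interval 1.27 to 3.95) and Fezf2 (1.23, interval 0.65 to 1.80), further factors of these neurons, were higher with values apart. The list was unevenly spread in mice without the knock-in, with a mean log2(CPM + 1) of 4.19 to 5.66 in WT and 4.46 to 6.10 in cGAS-KO, against 3.99 to 4.27 in HD and 4.54 to 4.90 in the double mutants.

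Thalamic, septal and pallidal genes (19 tested) had a median of -0.22, 2 higher and 2 lower at an unadjusted p under 0.05 and 1 lower by DESeq2. With each library left out the median was -0.38 to -0.10 and 1 to 8 members were lower, with 8 without HD replicate 1, a fit in which 9.48% of all genes were lower. The DESeq2 call was Prkcd, a kinase C of thalamic relay neurons, at 87.1, 185 and 254 CPM in HD and 63.1, 42.5 and 54.7 CPM in the double mutants (interval 0.13-fold to 0.704-fold). Prkcd was also widely spread without the knock-in, at 170, 63.1 and 47.2 CPM in WT and 58.7, 183 and 32.8 CPM in cGAS-KO. The list summed to 969 to 1430 CPM in HD and 778 to 1012 CPM in the double mutants. Choroid plexus and ependymal genes (18 tested, median -0.37, none higher and 1 lower at an unadjusted p under 0.05, no DESeq2 call) varied between libraries. With each library left out the median was -0.66 to 0.06, and it changed sign without HD replicate 2. They summed to 1847, 3529 and 867 CPM in HD and 2023, 2174 and 604 CPM in the double mutants, and the median interval reached 1.61 on the log2 scale to either side. No marker of these 4 lists was at 0 in all 6 libraries. Their part in the differences of other genes was not tested. Fibroblast and meningeal genes (18 tested, median 0.05) and erythrocyte genes (7 tested, median 0.21) had 0 and 1 members at an unadjusted p under 0.05, and no DESeq2 call.

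**Figure D5:**
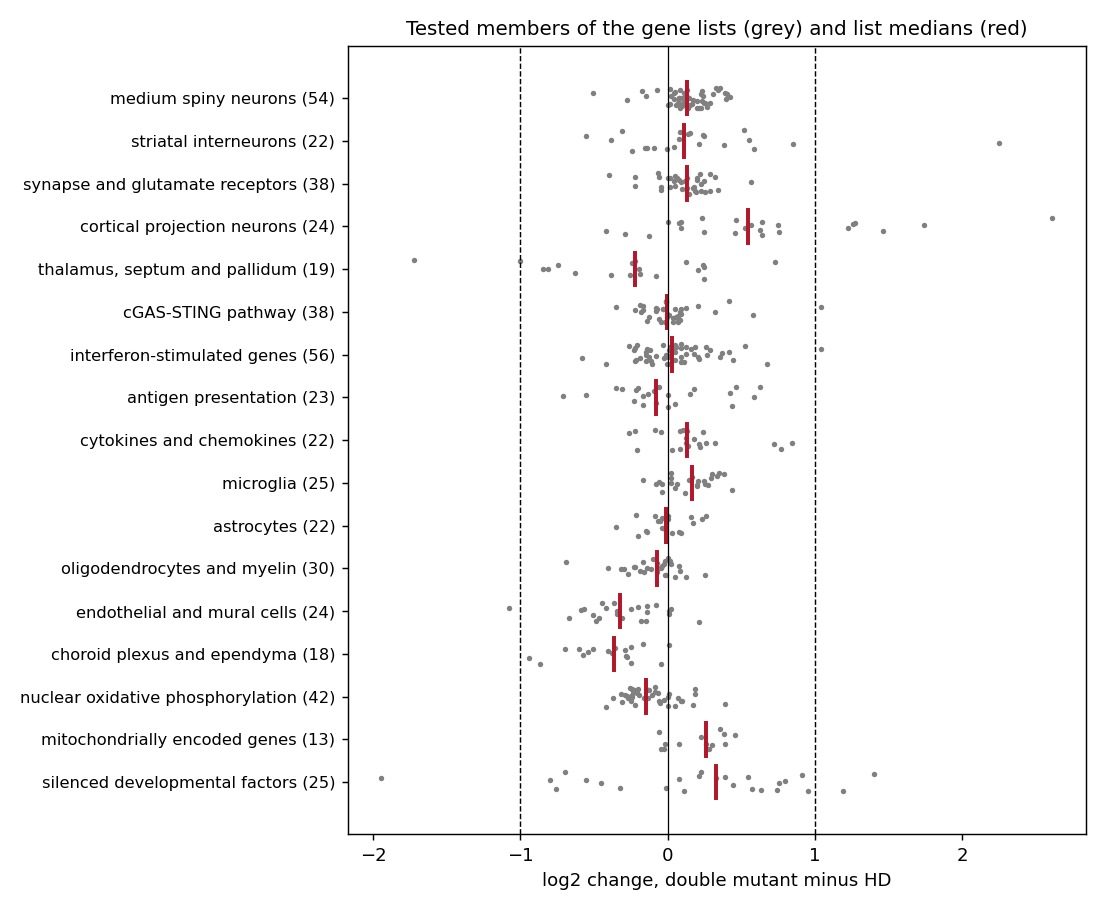
Grey points are the log2 changes between double mutants and HD of the tested members of 17 gene lists (number tested in parentheses, vertical scatter for display), red bars are list medians, and dashed lines mark 2-fold. Medians of the cortical, endothelial, choroid and developmental lists are 0.54, -0.33, -0.37 and 0.33, and with each library left out they run from 0.37 to 0.60, -0.42 to -0.19, -0.66 to 0.06 and 0.15 to 0.59.

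Other neuronal lists were mixed. Interneuron genes (22 tested, median 0.11) had 6 higher and 2 lower at an unadjusted p under 0.05, and DESeq2 called 4 higher and 1 lower. With each library left out 4 to 11 were higher and 2 to 3 lower. Of all genes 6.68% were higher and 6.84% lower at that level (3.53% to 9.84% and 3.33% to 9.48% with each library left out). Sst, the somatostatin gene, was at 102, 83.9 and 63.6 CPM in HD and 132, 121 and 106 CPM in the double mutants, and Nos1, of the same interneurons, measured 0.39 (interval 0.19 to 0.58). Pvalb, of fast-spiking interneurons, was at 45.6, 61.8 and 69.5 CPM in HD and 40.5, 36.8 and 43.8 CPM in the double mutants (log2 -0.55, interval -0.90 to -0.21). Lhx6 (0.55) and Trh (0.59) were the remaining calls of DESeq2, and Cort, the cortistatin gene, had the smallest p (2.25, interval 1.27 to 3.23) at 0.106 to 0.409 CPM in HD and 1.03 to 2.01 CPM in the double mutants. Cort was widely spread without the knock-in, at 0.594, 2.71 and 3.00 CPM in WT and 1.36, 0.938 and 5.87 CPM in cGAS-KO. WT replicate 1 was thus low and cGAS-KO replicate 3 high, as for the cortical markers, and the part of tissue composition was not tested. Synapse and glutamate receptor genes (38 tested, median 0.13) had 13 higher and 2 lower at an unadjusted p under 0.05 (4 to 18 and 0 to 3 with each library left out). The shares of all genes are those given for interneurons. Camk2a, the main kinase of the postsynaptic density, was called by DESeq2. It was at 941, 784 and 719 CPM in HD and 1007, 1103 and 1004 CPM in the double mutants (interval 1.1-fold to 1.46-fold), and 37 of the 38 intervals lay inside 2-fold. Immediate early genes (27 tested, median 0.09) had 1 higher, Nr4a2 at 0.69 (interval 0.04 to 1.34), and no DESeq2 call.

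Genes of mitochondrial respiration are encoded in the nucleus and in the mitochondrion, and no member of either list passed edgeR's test. Nuclear oxidative phosphorylation genes (42 tested) had a median of -0.15, with 2 higher and 19 lower at an unadjusted p under 0.05 (9 to 23 lower with each library left out in turn), and all 42 intervals lay inside 2-fold. Of all genes 6.84% were lower at that level, and 3.33% to 9.48% with each library left out. Ndufs1, a subunit of complex I, was at 166, 177 and 173 CPM in HD and 133, 148 and 155 CPM in the double mutants (log2 -0.25, interval -0.40 to -0.10), and Cox4i1, of complex IV, measured -0.24. Cox8a, also of complex IV, was the 1 DESeq2 call, in the higher direction, at 160, 174 and 153 CPM against 228, 226 and 186 CPM. Mitochondrially encoded genes (13 tested) had a median of 0.26 (9 positive and 4 negative), with mt-Co1 the 1 member at an unadjusted p under 0.05 (0.38, interval 0.02 to 0.75) and no DESeq2 call. HD replicate 1 had the highest level of HD in 12 of these 13 genes. Without it the median was 0.41 and 7 members were higher at an unadjusted p under 0.05, against 9.84% of all genes in that fit. Without double-mutant replicate 1 the median was 0.11 and none was higher, against 4.09% of all genes.

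Lipid and housekeeping lists were bounded within narrow limits. Medians were -0.04 for cholesterol synthesis (24 tested, 0 higher and 3 lower at an unadjusted p under 0.05), -0.02 for cholesterol transport (22, 1 and 1), -0.07 for fatty acid synthesis (23, 1 and 5), -0.06 for fatty acid oxidation (31, 0 and 6), -0.02 for sphingolipids (43, 5 and 4) and -0.05 for glycerophospholipids (55, 5 and 7). DESeq2 called Fads6, a desaturase, at -0.52 (interval -0.77 to -0.26), Cds1, which makes CDP-diacylglycerol, at -0.39 and Napepld, a phospholipase D, at -0.46. Members with the smallest p were otherwise Pmvk of cholesterol synthesis (-0.35), Pltp of lipid transfer (-0.30), Abcd2 of peroxisomal import (-0.28) and the ceramide synthase Cers6 (0.30). Cyp46a1, which clears brain cholesterol, had an interval of 0.812-fold to 1.01-fold, and Apoe, the main lipid carrier of astrocytes, 0.917-fold to 1.12-fold. Pla2g4a, a phospholipase A2, was at 8.18, 9.00 and 7.64 CPM in HD and 9.34, 8.61 and 8.52 CPM in the double mutants, with 3.43 to 4.37 CPM in WT and an interval of 0.893-fold to 1.26-fold.

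Autophagy and lysosome genes (33 tested) had a median of 0.01 with 1 higher and 1 lower (Gabarapl2, at -0.30) at an unadjusted p under 0.05, and every interval lay inside 1.5-fold. Genes of p53, senescence and DNA damage (33 tested) had a median of -0.02 with 1 higher, Cdkn2a at 1.03, and 2 lower. Cdkn1a, the p21 inhibitor, measured 0.20 (interval 0.905-fold to 1.47-fold). Unfolded protein and heat shock genes (31 tested) had a median of 0.05 with 3 higher and 1 lower, Xbp1 having the smallest p at 0.29. DESeq2 called no member of these 3 lists.

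Developmental transcription factors that are usually silent in the adult striatum were listed because some are expressed in the knock-in. Of 48 listed 25 passed the filter on low counts. That filter used the knock-in libraries alone, so genes silent in WT passed through their level there, and counts against WT are description only. The interval against WT lay above 0 for 10 in HD (8.6% of all genes) and for 9 in the double mutants (9.27%), and below 0 for 1 in the double mutants. Without the 2 libraries that stood apart it lay above 0 for 10 and 8 (15.3% and 14.3% of all genes). Between double mutants and HD the median was 0.33 (0.15 to 0.59 with each library left out, lowest without HD replicate 3), 2 were higher and 3 lower at an unadjusted p under 0.05, DESeq2 called none, and 6 intervals lay inside 2-fold. Hoxc5, a body-axis patterning gene, was at 6.92, 6.12 and 1.16 CPM in HD and 4.82, 7.44 and 7.02 CPM in the double mutants, with at most 0.0142 CPM in WT. HD replicate 3 was low, and the interval ran from 0.422-fold to 4.37-fold. Hoxc8, which lies inside the annotated span of Hoxc5 so that their reads may be shared, had 5.07, 4.85 and 0.754 CPM in HD and 3.57, 7.36 and 5.66 CPM in the double mutants, and 0 counts in all WT and cGAS-KO libraries. Pax2 was at 1.6, 1.4 and 0.741 CPM and 2.49, 2.43 and 1.58 CPM (log2 0.80, interval 0.16 to 1.43). All 3 double-mutant libraries were above every WT library for each of these 3 genes, and for Hoxc5 and Hoxc8 the data exclude neither a 2-fold decrease nor a 2-fold increase.

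Clock genes (21 tested) had a median of -0.01, 3 higher and 3 lower at an unadjusted p under 0.05 and no DESeq2 call. Dbp, a clock output factor, was at 71, 66.4 and 62 CPM in HD and 65.9, 68.5 and 69.4 CPM in the double mutants, against 130 to 138 CPM in WT. Its interval of 0.921-fold to 1.13-fold excluded an increase above 1.13-fold. Per2 had the smallest p of the list, at 0.37 (interval 0.09 to 0.64).

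Genes around Cgas on chromosome 9 were counted because a knockout allele can carry flanking sequence of another strain. Of 61 tested genes within 5 Mb none passed edgeR's test, DESeq2 called 1, and 13 had an unadjusted p under 0.05 (21.3%, against 13.5% of all genes). Within 10 Mb 24 of 148 did (16.2%) and within 20 Mb 46 of 325 (14.2%). The DESeq2 call within 5 Mb was Unc13c (-0.47). DESeq2 called 2 genes within 10 Mb, Unc13c and Fam81a (0.40), both described above by their values. Whether flanking sequence plays a part in them was not tested. The genes that differ between C57BL/6 substrains (7 tested) had a median of 0.00 with 1 higher, Cyfip2 at 0.20, 1 lower and no DESeq2 call, and Nnt measured 0.68 (interval -0.08 to 1.43). The 3 tested sex-linked genes, of which Tsix had the smallest p at 0.20 (interval -0.58 to 0.98), gave no member at an unadjusted p under 0.05 and no DESeq2 call.

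Whether loss of cGAS acted differently with and without the knock-in was tested as an interaction over all 12 libraries. Of 21482 genes 1 was called by edgeR (0.00466%), Mid1-ps1, whose change was 3.08 lower on the log2 scale in knock-in mice (-3.08, interval -3.83 to -2.34, adjusted p = 0.0167). At an unadjusted p under 0.05 there were 621 genes. Without WT replicate 1 and cGAS-KO replicate 3 edgeR called 98 genes, while over 12 libraries DESeq2 called 3 and limma-voom none. Leaving out those 2 libraries also leaves WT and cGAS-KO with no library rich in Xist, and the part of this in the 98 calls was not tested. The smallest p values after it belonged, on the lower side, to Thsd7a (-0.38, interval -0.57 to -0.20), Gabra4, a GABA-A receptor subunit of the striatum (-0.43, -0.65 to -0.21), Fam89a (-1.34, -2.02 to -0.66) and Gm47234 (-3.25, -4.98 to -1.53). On the higher side they belonged to Hif3a, a hypoxia-inducible factor (1.36, 0.80 to 1.91), the arrestin-like metabolic regulator Txnip (0.50, 0.22 to 0.77), the urokinase receptor gene Plaur (1.52, 0.64 to 2.41), Pla2g2d (2.72, 1.10 to 4.35) and 5430440P10Rik (4.02, 1.80 to 6.24). Hif3a was at 4.97, 4.98 and 4.66 CPM in HD and 9.92, 7.72 and 5.64 CPM in the double mutants, against 10.2 to 11.7 CPM in WT and 5.73 to 7.88 CPM in cGAS-KO. The change with cGAS loss in mice without the knock-in comes from other libraries. Over 15229 genes of at least 1 CPM it correlated with that in knock-in mice at r = 0.36 and rho = 0.43 across genes, a description only, since genes are not independent replicates. The correlation includes WT replicate 1 and cGAS-KO replicate 3, which stood apart in cortical markers, and was not computed without them. The part of tissue composition in it was not tested.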

How the data were processed

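Poly(A)-selected striatal RNA of 12 mice was sequenced from strand-marking libraries, as the labels' protocols state. What the authors deposited is 1 table of raw counts a mouse, with a whole number for each Ensembl gene. The sources used here do not give the aligner, genome build, annotation or strand setting of the counting. GENCODE M21 (GRCm38) gave a symbol to 55227 of 55487 genes (99.53%). Groups and replicate numbers were read from titles. Genes with at least 10 counts in at least 3 of the 6 libraries compared were kept, scaled by TMM and fitted by edgeR (quasi-likelihood, robust). The fit left 4 residual degrees of freedom, and the biological coefficient of variation was 12.8%. Each 95% interval uses the standard error of that fit. CPM values are scaled by TMM over 12 libraries, and their errors are SDs. The interaction and values against WT come from a fit over all 12 libraries.

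Genes were named by rule: Cgas and Htt, called genes, the 8 with the smallest p each way among separated genes of at least 1 CPM, the member of each of 38 lists with the smallest p, 49 fixed genes, and the 5 with the smallest interaction p each way. Any other gene in the text was picked with its values in view, and some genes that the rule names are not reported here. The members and lists were chosen with earlier results of these data known. Alternatives were other size factors, filters, libraries, tools and thresholds, the replicate number as a block, and leaving out each library. The fit was tested on simulated data. Same-numbered libraries had correlated deviations of -0.12, 0.41 and -0.01 over 10466 genes, so the numbers were not taken as pairs. The software was edgeR 4.0.16 and DESeq2 1.42.0 with limma 3.58.1, all under R 4.3.3. Values against WT without WT replicate 1 and cGAS-KO replicate 3 were an alternative chosen after seeing the data. Promoter sequences are from RefSeq (GRCm38.p6).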

Additional observations from a re-analysis of the deposited data

Results flagged for a closer look

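The change of Mid1-ps1 with loss of cGAS differed between mice with and without the knock-in allele, with a difference of -3.08 on the log2 scale by edgeR's interaction test (adjusted p = 0.0167). The difference rests on the HD libraries, since the pseudogene had 376 to 517 counts in the 3 HD libraries and 21 to 76 counts in each of the other 9. The call was lost with limma-voom and when any of 7 single libraries was left out.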

How the results depend on the processing

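Mid1-ps1 was called under every alternative tried for the comparison of double mutants with HD, at log2 changes of -3.03 to -2.74. The count of called genes, 1 as reported, was 349 with no filter on low counts, 202 with DESeq2's Wald test and 1 to 298 with each library left out, the highest without HD replicate 1. It stayed at 1 with DESeq2 size factors, a filter of 1 CPM, limma-voom, or 10 or 12 libraries in the fit. With the replicate number as a block it was 496. The sources used here do not say whether the numbers pair the samples, and not every library correlated best with its own number. The cause of the higher count was not tested. Genes whose interval excluded a 2-fold change numbered 14696 to 15878 over all alternatives other than left-out libraries and 14888 to 15344 with a library left out. The interaction, 1 gene as reported, gave 3 with DESeq2's Wald test, 0 with limma-voom, 98 without WT replicate 1 and cGAS-KO replicate 3 together, and 0 to 1 with each library left out. No called gene changed direction. The median of medium spiny neuron genes ran from -0.02 to 0.32 with each library left out. Intervals were widest for genes under 1 CPM, and counting error and variation between mice were not separated.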
